A study of Mus musculus with 6 samples.

Results

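The 7 genes described here belong to the fluid secretion machinery and its nerve receptors in the epithelium of the mouse submandibular gland. They were the water channels Aqp5 and Aqp3, the chloride channel Ano1, the chloride loader Slc12a2, and the receptors Chrm1, Chrm3 and Adrb1. They were chosen by symbol, and each symbol matched 1 row in all 3 gene matrices, so that 7 of 32285 genes were kept. Droplet single-cell libraries (10x Genomics, 3′ ends, polyadenylated RNA) had been made from female wild-type C57BL/6J mice. The first group was Epcam+ epithelium of glands collected 90 days after 30 Gy of stereotactic irradiation to the left gland. The second was the Epcam+, Cd49f-high basal compartment of untreated glands (the basal sort below), and the third was Epcam+ epithelium of untreated glands. All groups shared the strain, the sex, a labelled age of 8 to 10 weeks, and a sort that excluded DAPI+, Cd3+, Cd16/Cd32+, Cd31+ and Cd45+ cells. The labelled age cannot be the age at collection of the irradiated mice. Each group was 1 library that pooled 3 mice told apart by hashtag antibodies, so library, group and age at collection cannot be told apart. The mice were separate animals per the labels, and every test below compared 3 mice with 3 mice.

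Saliva begins as a primary fluid in the acini. The cotransporter encoded by Slc12a2 (NKCC1) loads chloride into the cell across the basolateral membrane, the calcium-activated channel encoded by Ano1 (TMEM16A) releases it into the lumen, and water follows, largely through the apical water channel Aqp5. Acetylcholine from parasympathetic nerves starts this through the muscarinic receptors Chrm3 and Chrm1, which raise cytosolic calcium. Noradrenaline from sympathetic nerves acts on the beta-adrenergic receptor Adrb1, which raises cyclic AMP and drives protein secretion. The primary fluid then passes through intercalated, granular and excretory ducts, whose cells change its ions and, in rodents, add growth factors and kallikreins. Aqp3 is a water and glycerol channel of basolateral membranes and of basal cells in stratified epithelia.

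Positions are on the GRCm38.p6 assembly. Aqp3 is at chr4:41092724-41098183, Ano1 at chr7:144588549-144752026, Chrm3 at chr13:9875486-10361062 and Aqp5 at chr15:99591028-99594829. Chrm1 is at chr19:8664005-8683606 and Adrb1 at chr19:56722117-56725150. RefSeq start-site windows of 300 bases (250 before and 50 after the start) were at hand for 5 of the 7 genes. The windows of 3 genes are printed as examples. Ano1 and Adrb1 passed the threshold in every comparison of irradiated with untreated cells in which they were tested. So did Slc12a2 and Aqp5, and Chrm3 passed in none. Capitals mark the GC box GGGCGG, the letters of which in the opposite orientation are CCGCCC. They also mark the CCAAT box, which in the opposite orientation reads ATTGG. The windows are chr7:144738524-144738823 on the minus strand (Ano1), chr13:10360754-10361053 on the minus strand (Chrm3) and chr19:56721867-56722166 on the plus strand (Adrb1). The Ano1 and Chrm3 windows lie inside the gene spans given above, which end at 144752026 and 10361062. Each therefore marks a start within its span and not the outer end, and for Ano1 the letters are not those of the outermost start.
Ano1: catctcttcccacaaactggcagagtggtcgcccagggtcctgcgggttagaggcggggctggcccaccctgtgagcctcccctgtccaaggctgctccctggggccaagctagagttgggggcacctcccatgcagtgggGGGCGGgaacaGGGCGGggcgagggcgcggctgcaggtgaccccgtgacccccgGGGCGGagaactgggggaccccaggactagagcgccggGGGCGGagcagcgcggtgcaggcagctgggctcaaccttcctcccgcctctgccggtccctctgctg
Adrb1: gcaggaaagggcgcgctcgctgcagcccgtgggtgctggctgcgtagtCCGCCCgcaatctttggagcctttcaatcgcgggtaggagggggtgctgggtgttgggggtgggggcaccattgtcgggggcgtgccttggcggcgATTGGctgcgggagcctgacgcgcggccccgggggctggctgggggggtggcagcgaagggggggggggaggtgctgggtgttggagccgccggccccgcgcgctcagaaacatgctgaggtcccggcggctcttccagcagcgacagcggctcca
Chrm3: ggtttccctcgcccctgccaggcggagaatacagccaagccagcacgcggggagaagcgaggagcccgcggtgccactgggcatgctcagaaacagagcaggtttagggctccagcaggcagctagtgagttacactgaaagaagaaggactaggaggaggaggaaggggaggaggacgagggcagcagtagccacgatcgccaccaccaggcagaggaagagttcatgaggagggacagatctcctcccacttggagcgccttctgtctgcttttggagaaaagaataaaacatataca
The Ano1 window holds 4 GC boxes and is 71.7% G or C, with 18 CpG dinucleotides. The Adrb1 window holds 1 GC box and 1 CCAAT box and is 72.3% G or C, with 28 CpG dinucleotides. The Chrm3 window holds none of the 5 motifs searched on both strands and is 57.3% G or C, with 11 CpG dinucleotides. Of the windows that are not printed, Aqp5 held 3 GC boxes and 1 E-box (CACGTG) at 79.7% G or C, and Aqp3 held 1 TATA box (TATAAA) and 1 GC box at 64.0%. The cyclic AMP response element TGACGTCA was in none of the 5. Over 32851 RefSeq windows of this length, the GC box was in 35.7%, the CCAAT box in 37.4%, the TATA box in 13.6%, the E-box in 7.15% and the cyclic AMP response element in 1.79%, and the median G or C content was 52.7%. No motif of the 5 contains another. A match describes letters and no binding.

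After filtering, hashtag calling and doublet removal, 2005 irradiated, 3068 basal sort and 2090 untreated cells were kept. Deposited gene counts summed to 58485558 irradiated, 59207148 basal sort and 137835128 untreated UMIs (unique molecular identifiers, which count molecules). Kept irradiated cells held a median of 19046 to 20316 UMIs per mouse and 4.12 to 4.83% mitochondrial UMIs, against 12084 to 12217 UMIs and 9.02 to 9.98% in untreated mice. Of the cells that passed the filter, 11.2% of irradiated, 22.6% of basal sort and 43.4% of untreated cells had no hashtag call and were left out. The irradiated library shared 8 cell barcodes with the untreated library and 1 with the basal sort, and the basal sort shared 15 with the untreated library. Despite the exclusion of Cd31+ cells, endothelial-like cells remained, 1 in irradiated, 115 in basal sort and 19 in untreated mice, and 13 fibroblast-like cells remained among untreated cells. Classes were rebuilt from fixed markers without the 7 genes, and an unnamed class is called here by its leading gene. Kept acinar-like cells numbered 8 irradiated, all from mouse 2, against 108 untreated. Intercalated duct-like cells numbered 105 irradiated, 111 basal sort and 526 untreated. Granular duct-like cells numbered 1085 irradiated and 625 untreated, and ionocyte-like cells, the proton-pumping cells marked by Foxi1 and Ascl3, 632 irradiated and 586 untreated. Basal duct-like cells numbered 17 irradiated, 2504 basal sort and 51 untreated, and 216 myoepithelial-like cells came from the basal sort.

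The irradiated and untreated cells of 3 duct classes lay mostly in different clusters, which touches every comparison within them. Granular duct-like cells came from cluster 1 (988 of 1085 irradiated cells) and from cluster 4 (582 of 625 untreated cells), and cluster 12 held 92 irradiated and 37 untreated cells. At a limit of 10% mitochondrial UMIs a cluster of 845 irradiated and 5 untreated cells was named striated duct, and with another rule for hashtag calls a cluster of 664 irradiated and 4 untreated cells was named luminal duct. The cells of both that were also kept in the main setting were granular duct-like there. Ionocyte-like cells came from cluster 3 (620 of 632 irradiated cells) and from clusters 5 and 19 (514 and 70 of 586 untreated cells). Intercalated duct-like cells came from cluster 16 (95 of 105 irradiated cells) and cluster 2 (524 of 526 untreated cells). Cluster 16 raised 4 of the 6 intercalated duct markers, but none of them was among its 10 leading genes, which included Csn3, Cxcl2, Bpifa2, Dcpp1 and Dcpp3. The part of these clusters in the results was not tested.

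Among classes with at least 10 cells in each untreated mouse, Aqp5, Chrm3 and Chrm1 were highest by CPM in an unnamed class led by Smgc, Ano1 and Adrb1 in intercalated duct-like cells and Slc12a2 in ionocyte-like cells. Levels are given as CPM (counts of a gene scaled to a common total of UMIs for the cells of a class in 1 mouse), in classes of at least 10 cells in that mouse, and mean ± SD is over 3 mice. These levels are a description with no test between classes. In untreated mice Aqp5 stood at 549 ± 60.1 CPM in the class led by Smgc, the gene of a mucin-like secretory product of intercalated duct and neonatal gland cells. Acinar-like cells followed at 223 ± 14.1 CPM, and the 3 mice of these classes did not overlap. Intercalated duct-like cells held 12.1 ± 5.00 CPM of Aqp5. The Smgc-led cells were themselves named intercalated duct in some alternative clusterings. At a limit of 10% mitochondrial UMIs, and with the 7 genes among the variable genes, they raised 3 of the 6 intercalated duct markers. Under another rule for hashtag calls they raised 4 of 6. Smgc is 1 of these markers. With cells without a hashtag call added they stayed unnamed. Ano1 was highest in intercalated duct-like cells, at 157 ± 5.76 CPM, followed by the Smgc-led class at 39.3 ± 16.5 CPM and acinar-like cells at 7.63 CPM. The Smgc-led level of Ano1 rests on 83 cells with a hashtag call, and 382 such cells without a call held 3.62 CPM. Slc12a2 was highest in ionocyte-like cells, at 1524 ± 70.4 CPM, followed by the Smgc-led class at 715 ± 47.7 CPM, intercalated duct-like cells at 289.8 ± 54.5 CPM and acinar-like cells at 133 ± 9.06 CPM. These 4 classes did not overlap for Slc12a2, and granular and basal duct-like cells, at 16.8 and 11.2 CPM, did. Acinar-like cells held more UMIs than the other classes, so the order per cell was another. The mean was 23.7 Aqp5 UMIs per acinar-like and 9.80 per Smgc-led cell. For Slc12a2 it was 19.6 UMIs per ionocyte-like, 14.2 per acinar-like, 12.8 per Smgc-led and 2.38 per intercalated duct-like cell.

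**Figure D1:**
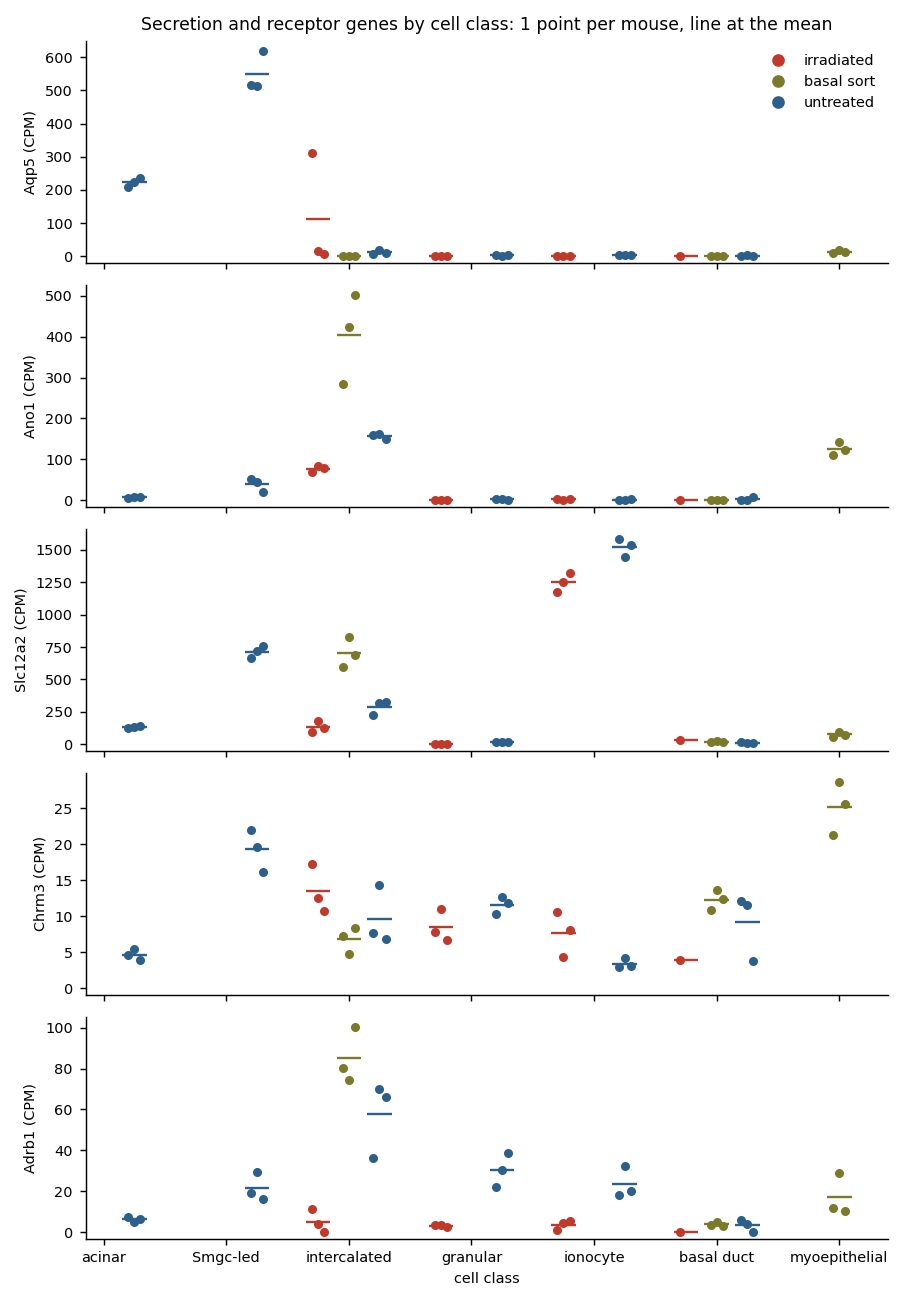
CPM (y axis, linear) of Aqp5, Ano1, Slc12a2, Chrm3 and Adrb1 by cell class (x axis). Each panel shows 1 gene, with 1 point per mouse in irradiated, basal sort and untreated groups and a bar at the mean. Aqp5 peaked in Smgc-led and acinar-like cells, Ano1 in intercalated duct-like cells (404 CPM in the basal sort and 157 in untreated mice), Slc12a2 in ionocyte-like cells, and Adrb1 was lower in irradiated than in untreated granular, ionocyte and intercalated duct-like cells.

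Adrb1 and Chrm3 were detected in each of these classes, and Chrm1 in all of them but ionocyte-like cells. Adrb1 averaged 57.5 ± 18.4 CPM in untreated intercalated duct-like, 30.4 ± 8.31 in granular duct-like, 23.6 ± 7.48 in ionocyte-like and 21.6 ± 6.95 CPM in Smgc-led cells, and each class overlapped its neighbour in this order. Acinar-like cells held 6.38 ± 1.27 CPM of Adrb1 and basal duct-like cells 3.31 CPM. Per cell, the mean was 0.674 Adrb1 UMIs in acinar-like, 0.551 in granular duct-like and 0.473 in intercalated duct-like cells. Chrm3 averaged 19.3 ± 2.95 CPM in Smgc-led cells, above every mouse of the next class. Granular duct-like (11.6 CPM), intercalated duct-like (9.62), basal duct-like (9.17), acinar-like (4.66) and ionocyte-like cells (3.40) followed, each overlapping the next. Luminal duct-like cells, with enough cells in 2 untreated mice, held 17.9 and 34.5 CPM of Chrm3. Per cell, the mean was 0.506 Chrm3 UMIs in acinar-like, 0.344 in Smgc-led and 0.210 in granular duct-like cells. Chrm1 was highest in Smgc-led cells, at 13.8, 9.81 and 9.23 CPM in untreated mice 1, 2 and 3, and had no UMI in untreated ionocyte-like cells. In the basal sort, myoepithelial-like cells, the contractile cells around acini and ducts, held 21.3, 28.7 and 25.5 CPM of Chrm3 and 9.37, 21.5 and 10.5 CPM of Chrm1. The 3 basal sort mice held 85.7% of their 28 Chrm1 UMIs in myoepithelial-like cells, which had 216 of 3068 cells.

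**Figure D2:**
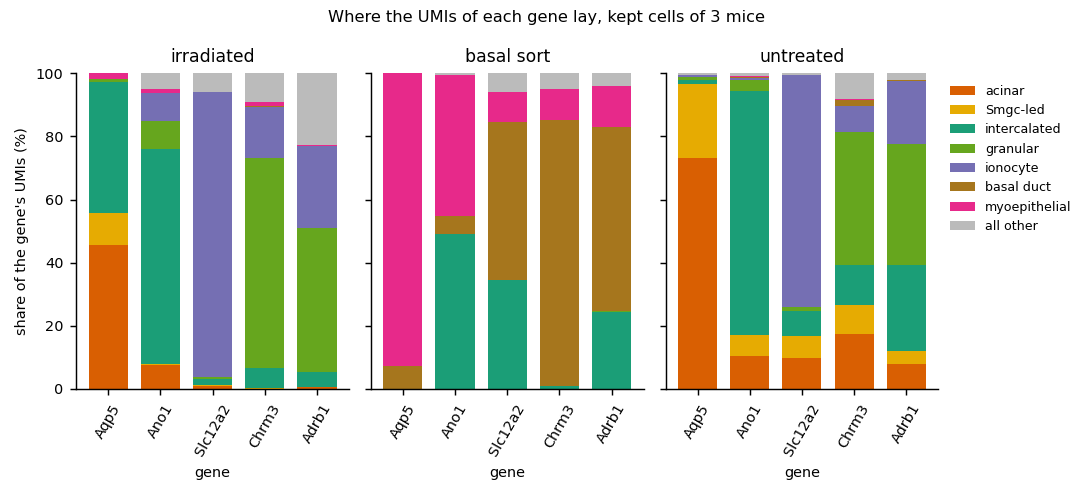
Share of each gene's UMIs (y axis, percent) that lay in each class, as stacked bars for 5 genes (x axis) in irradiated, basal sort and untreated cells, summed over 3 mice. Of Slc12a2 UMIs, ionocyte-like cells held 90.1% in irradiated and 73.5% in untreated cells, and of Aqp5 UMIs, acinar-like cells held 45.6% in irradiated and 73.2% in untreated cells.

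Over all kept cells, Aqp5 was 16.6, 7.62 and 0.198 CPM in irradiated mice 1, 2 and 3 and 77.5, 102 and 96.3 CPM in untreated mice. Every irradiated mouse lay below every untreated mouse. Aqp5 fell by 3.93 ± 0.61 on the log2 scale (SE, edgeR quasi-likelihood test, Benjamini-Hochberg adjusted p = 0.0014). In a sum over all cells, fewer cells of a type and less RNA per cell cannot be told apart. Of the 5 of 7 genes that passed the filter on low counts in this comparison, 4 were called lower and none higher. Of the 11881 tested genes 19.4% were called lower, 20.4% higher and 39.7% in either direction. The summed level of the 10 acinar markers moved with this result, at 683, 2417 and 685 CPM in irradiated mice (10, 10 and 9 of 10 markers detected) and 80584, 106228 and 84720 CPM in untreated mice (10 of 10). Its part in the result was not tested. A further 623 untreated acinar-like cells had no hashtag call and are not in these sums. Without acinar-like cells the Aqp5 change was -2.75 (adjusted p = 0.0219), without acinar-like and intercalated duct-like cells it was -5.34 (adjusted p = 4.49e-05), and without irradiated mouse 1 it was -4.53. Smgc-led cells stayed in both sums without acinar-like cells. They held 821 Aqp5 UMIs in 83 untreated cells and 32 in 1 irradiated cell. The part of this class in these changes was not tested.

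The remaining Aqp5 UMIs of irradiated glands came from few cells. Of 318 irradiated Aqp5 UMIs, 45.6% lay in the 8 acinar-like cells of mouse 2, 41.5% in intercalated duct-like cells and 10.1% in a single Smgc-led cell. Untreated mice held 3520 Aqp5 UMIs, of which 73.2% lay in acinar-like cells (5.17% of cells) and 23.3% in Smgc-led cells (3.97% of cells). The 8 irradiated acinar-like cells held 428 CPM of Aqp5 (145 UMIs, 95% exact Poisson interval 361 to 504), 50.2 CPM of Ano1 and 419.5 CPM of Slc12a2. The acinar-like class of untreated mice held 208, 223 and 237 CPM of Aqp5, and with cells from 1 irradiated mouse this class allowed no test. Detection depended on depth. At 2000 UMIs per cell, 34.4, 41.0 and 36.1% of untreated acinar-like cells held an Aqp5 UMI, against 100, 100 and 91.9% unthinned. In untreated granular duct-like cells, which served as the background, 0.649% did at 2000 UMIs.

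In intercalated duct-like cells the fit called Aqp5 higher after irradiation, and 1 mouse carried that difference. Aqp5 was 311, 17.2 and 7.17 CPM in irradiated mice and 7.72, 17.6 and 11.1 CPM in untreated mice, so the groups overlapped. The fitted log2 fold change was 3.11 ± 1.01 (SE, edgeR, adjusted p = 0.0487), and without irradiated mouse 1 it was 0.61 (adjusted p = 0.349). In a fit that blocked on replicate numbers it was 2.33 (adjusted p = 0.152). In irradiated mouse 1, 108 Aqp5 UMIs lay in 22 intercalated duct-like cells, 8 of which held at least 1. The irradiated cells were mostly cluster 16 and the untreated ones cluster 2. The 6 intercalated markers of the class summed to 247, 351 and 448 CPM in irradiated mice and 1190.2, 3593 and 1194 CPM in untreated mice. Its 8 basal duct markers summed to 1252, 363 and 908 CPM in irradiated mice, with 7 or 8 detected, and to 91.9, 69.4 and 83.2 CPM in untreated mice, with 4 or 5 detected. The 10 acinar markers summed to 7199, 1595 and 93.3 CPM in irradiated mice and 6681, 10407 and 6881 CPM in untreated mice. Of these, Pip was 6180, 175 and 3.59 CPM in irradiated mice and 424, 591 and 428 CPM in untreated mice. The acinar transcription factor Bhlha15 was close to the detection limit in both groups. It was 0, 1.56 and 0 CPM in irradiated mice and 3.51, 3.19 and 1.85 CPM in untreated mice. The part of these markers in the results of this class was not tested.

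Low Aqp5 counts in the duct classes were set against acinar products. In untreated granular, ionocyte and intercalated duct-like cells Aqp5 stood at 0.709 to 1.69 UMIs per 1000 UMIs of the acinar markers, and in untreated acinar-like cells at 0.763, 0.719 and 0.857. The part of free RNA in these counts was not tested. The ratio was 19.3, 16.1 and 22.8 in untreated Smgc-led cells. It was 43.2, 10.8 and 76.9 in irradiated and not above 1.69 in untreated intercalated duct-like cells. In irradiated mice 1, 2 and 3 this rested on 108, 22 and 2 Aqp5 UMIs beside 2502, 2043 and 26 UMIs of the acinar markers. Irradiated ionocyte-like cells held no Aqp5 UMI in any mouse.

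Aqp3 was close to the detection limit in every class. It had 1, 4 and 9 UMIs in irradiated mice, 20, 7 and 13 in basal sort mice and none in untreated mice, which allows up to 0.0790 CPM there from a count of 0 (3 counts over the 3 mice). All 14 irradiated Aqp3 UMIs lay in granular duct-like cells. In the basal sort, 92.5% of the 40 UMIs lay in basal duct-like cells, which were 2504 of 3068 cells. Aqp3 did not pass the filter on low counts in any comparison.

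Ano1 was lower in irradiated epithelium and lower within its main class. Over all kept cells it was 5.08, 5.72 and 3.76 CPM in irradiated mice and 23.1, 20.6 and 25.9 CPM in untreated mice, with no overlap. It fell by 2.51 ± 0.15 on the log2 scale (SE, edgeR, adjusted p = 1.64e-05). Within intercalated duct-like cells it was 69.1, 84.3 and 78.9 CPM in irradiated mice and 159, 162 and 151 CPM in untreated mice, again with no overlap. There Ano1 fell by 0.82 ± 0.18 on the log2 scale (adjusted p = 0.00832), where 10.1% of 8019 tested genes were called lower and 24.8% in either direction. These cells were mostly cluster 16 in irradiated and cluster 2 in untreated mice. Across 14 alternatives this change ranged between -1.01 and -0.66, with adjusted p of at most 0.042. Intercalated duct-like cells held 68.1% of 226 Ano1 UMIs in irradiated mice and 77.2% of 874 in untreated mice.

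The share of intercalated duct-like cells with an Ano1 UMI was similar unthinned and differed at equal depth. Unthinned it was 59.1, 65.2 and 57.1% in irradiated mice and 57.3, 62.3 and 61.4% in untreated mice. Irradiated cells of this class were deeper, with a median of 14610 to 17266 UMIs per mouse against 6542 to 6669 in untreated mice. At 2000 UMIs per cell the share with an Ano1 UMI was 10.0, 14.7 and 7.14% in irradiated mice (3 cells left out) and 26.8, 27.1 and 28.5% in untreated mice (32 left out). The pooled share in granular duct-like cells was 0.0925% in irradiated and 0.649% in untreated mice. Granular duct-like cells held too few Ano1 UMIs to pass the filter on low counts, at 1.00, 0.546 and 0.878 CPM in irradiated mice and 2.98, 2.91 and 1.70 CPM in untreated mice. Ionocyte-like cells held 3.85, 1.21 and 2.69 CPM in irradiated mice and 0.359, 0.699 and 2.08 CPM in untreated mice, and there the groups overlapped.

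Slc12a2, at chr18:57878512-57946821 (GRCm38.p6), was lower in irradiated mice in each of 3 duct classes. In granular duct-like cells it was 5.00, 3.76 and 2.05 CPM in irradiated mice and 16.0, 15.8 and 18.7 CPM in untreated mice. It fell by 2.28 ± 0.23 on the log2 scale (SE, edgeR, adjusted p = 2.3e-05). These cells were mostly cluster 1 in irradiated and cluster 4 in untreated mice. In cluster 12, which both groups shared, Slc12a2 was 2.92 CPM in irradiated cells (12 UMIs, 95% exact Poisson interval 1.51 to 5.11) and 2.95 CPM in untreated cells (3 UMIs, interval 0.609 to 8.63). In ionocyte-like cells, which hold most of the transcript, it was 1176, 1249 and 1324 CPM in irradiated mice and 1585, 1447 and 1540.0 CPM in untreated mice. There it fell by 0.29 ± 0.07 on the log2 scale (adjusted p = 0.00658), and the cells were mostly cluster 3 in irradiated and clusters 5 and 19 in untreated mice. Irradiated cells of cluster 3 held 1262 CPM of Slc12a2, against 1714 CPM in untreated cells of cluster 5 and 892 CPM in those of cluster 19. In intercalated duct-like cells it was 92.1, 182 and 122 CPM in irradiated mice and 227, 314 and 328 CPM in untreated mice, and it fell by 0.89 ± 0.28 (adjusted p = 0.0426). The groups did not overlap in any of the 3 classes.

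Several of these Slc12a2 calls rested on the mice and settings used. The ionocyte call was lost at a limit of 10% mitochondrial UMIs, with a change of -0.16 (adjusted p = 0.187). The intercalated call was lost in 6 of 14 alternatives, among them without irradiated mouse 1 or 3 and with any 1 untreated mouse left out, with adjusted p between 0.0531 and 0.155. The granular call passed in 14 of 14 alternatives, between -5.53 and -1.66, the first under the hashtag share rule. Of the granular duct-like cells' 9 ionocyte markers, 9, 9 and 8 were detected in irradiated mice, with a summed level of 341, 382 and 289 CPM, and 9, 9 and 8 in untreated mice, with 312, 307 and 277 CPM. The part of these markers in the result was not tested. Over all kept cells Slc12a2 was 216, 379 and 379.8 CPM in irradiated mice and 452, 400.0 and 385 CPM in untreated mice. It fell by 0.64 ± 0.20 on the log2 scale (adjusted p = 0.035), and 8 of 16 alternatives ended that call, with adjusted p of up to 0.334.

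The difference between ionocyte and granular responses was itself tested in 1 fit over both classes. For Slc12a2 the irradiation effect was 1.99 ± 0.21 higher in ionocyte-like than in granular duct-like cells on the log2 scale (SE, edgeR, adjusted p = 4.64e-06), and it passed in 13 of 13 alternatives between 1.53 and 2.19. For Ano1 it was 2.90 ± 0.82 higher (adjusted p = 0.0267), on the low counts given above, and it was lost without irradiated mouse 3 and without untreated mouse 1 or 2 (adjusted p = 0.0656, 0.116 and 0.113). Only 9 of the 13 alternatives gave a value for Ano1, and 6 of these passed. These 2 of the 5 tested members compare with 12.5% of 10766 tested genes called in either direction and 5.46% called higher. The difference did not pass for Chrm3 (1.19 ± 0.46, adjusted p = 0.107), Adrb1 (0.87 ± 0.39, adjusted p = 0.172) or Aqp5 (-1.88 ± 1.62, adjusted p = 0.529). For Chrm3 it passed in 3 of 13 alternatives, and without irradiated mouse 2 it was 2.03 (adjusted p = 0.00511).

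Adrb1 was lower after irradiation, over all kept cells and in each of the 3 duct classes that were tested. In granular duct-like cells it was 3.40, 3.22 and 2.49 CPM in irradiated mice and 22.2, 30.3 and 38.8 CPM in untreated mice. It fell by 3.35 ± 0.23 on the log2 scale (SE, edgeR, adjusted p = 1.63e-06). These were mostly cluster 1 in irradiated and cluster 4 in untreated mice. In the shared cluster 12 Adrb1 was 2.92 CPM in irradiated cells (12 UMIs, 95% exact Poisson interval 1.51 to 5.11) and 11.8 CPM in untreated cells (12 UMIs, interval 6.102 to 20.6). With Slc12a2 it made 2 of the 3 tested members called lower in granular duct-like cells, where 18.5% of 9720 genes were called lower and 37% in either direction. In ionocyte-like cells it was 0.962, 4.58 and 5.38 CPM in irradiated mice and 18.3, 32.1 and 20.3 CPM in untreated mice. There it fell by 2.43 ± 0.32 (adjusted p = 7.85e-05), and with Slc12a2 it again made 2 of 3 tested members called lower, where 13.4% of 9375 genes were called lower and 30.5% in either direction. The ionocyte-like cells were mostly cluster 3 in irradiated and clusters 5 and 19 in untreated mice. In intercalated duct-like cells it was 11.5, 3.90 and 0 CPM in irradiated mice and 36.5, 70.2 and 65.9 CPM in untreated mice, and it fell by 3.37 ± 0.52 (adjusted p = 0.00197). The groups did not overlap in any of these classes. Luminal duct-like cells were too few for a test, and there Adrb1 was 20.8 CPM in 32 irradiated cells (14 UMIs, interval 11.4 to 34.9) and 8.39 CPM in 38 untreated cells (5 UMIs, interval 2.72 to 19.6).

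**Figure D3:**
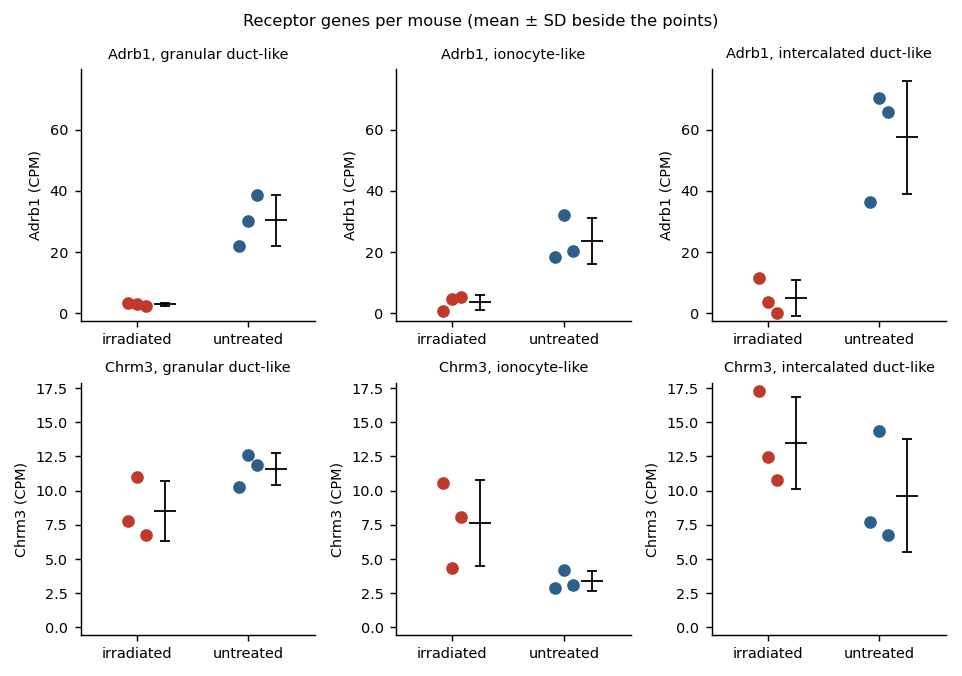
CPM (y axis, linear) of Adrb1 in the upper and Chrm3 in the lower panels for granular, ionocyte and intercalated duct-like cells, with 1 point per mouse in irradiated and untreated groups and mean ± SD beside them. Every irradiated mouse lies below every untreated mouse for Adrb1 in all 3 classes, with granular means of 3.03 irradiated and 30.4 untreated, while the Chrm3 groups overlap in granular and intercalated duct-like cells.

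Over all kept cells Adrb1 was 4.93, 4.35 and 3.96 CPM in irradiated mice and 19.2, 24.5 and 27.6 CPM in untreated mice, and it fell by 2.75 ± 0.17 on the log2 scale (edgeR, adjusted p = 1.99e-05). Its change passed in 16 of 16 alternatives there (between -2.91 and -2.44), in 14 of 14 in granular duct-like cells (between -3.66 and -3.16) and in 13 of 13 in ionocyte-like cells (between -2.62 and -2.08). In intercalated duct-like cells 14 of 14 passed, and the change was -2.10 at a limit of 10% mitochondrial UMIs. At 2000 UMIs per cell an Adrb1 UMI was found in 0.980, 0.156 and 0.424% of irradiated granular duct-like cells (4 of 1085 left out) and in 3.63, 6.61 and 5.61% of untreated ones (9 left out). Unthinned shares were 6.34, 7.01 and 6.30% in irradiated mice and 24.5, 35.3 and 34.0% in untreated mice. No Adrb1 UMI was found in 50 thinned untreated basal duct-like cells, which allows a share of up to 7.11% by the exact interval. That limit is above each granular share at 2000 UMIs, so these cells set no lower background. Other values moved with these groups. Granular duct-like cells held 398.6 to 957 CPM of the acinar markers in irradiated mice (9 of 10 detected) and 2202 to 2394 CPM in untreated mice (10 of 10). Ionocyte-like cells held 3337 to 4111 CPM of the 9 granular duct markers in irradiated mice and 36786 to 74521 CPM in untreated mice, with 8 or 9 detected in each group. Without cluster 19, a group of untreated ionocyte-like cells that raised 5 of the 9 granular duct markers, the Adrb1 change in ionocyte-like cells was -2.09 (adjusted p = 6.56e-05). Median mitochondrial shares per mouse were 3.51 to 4.22% in irradiated and 9.80 to 10.8% in untreated granular duct-like cells, and 5.45 to 6.17% in irradiated and 12.01 to 12.30% in untreated ionocyte-like cells. The part of these values in the Adrb1 result was not tested.

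An unnamed class of 143 low-UMI cells was led by Gm26917, and 111 of them were irradiated. All its cells together raised 9 of 9 ionocyte markers but had a median of 2464 UMIs. In it Adrb1 was 41.5, 38.8 and 43.2 CPM in irradiated mice 1, 2 and 3, from 5, 11 and 9 UMIs. The irradiated cells together held 40.8 CPM (25 UMIs, 95% exact Poisson interval 26.4 to 60.2), against 133 CPM in the 29 untreated cells (9 UMIs, interval 60.8 to 252). Slc12a2 was 1385, 1469.7 and 1599 CPM in the irradiated mice, and 221 CPM in the untreated cells together. The irradiated ionocyte-like cells held 0.962 to 5.38 CPM of Adrb1 beside 1176 to 1324 CPM of Slc12a2. Chrm3 and Ano1 were also higher in the low-UMI class than in ionocyte-like cells, at 35.9 CPM of Chrm3 in irradiated and 103 CPM in untreated cells, and at 14.7 CPM of Ano1 in irradiated and 29.5 CPM in untreated cells. The irradiated and untreated cells of this class also differed in markers. Acinar markers summed to 216, 77.5 and 245 CPM in irradiated mice and to 23847 and 20211 CPM in untreated mice 1 and 2. Ascl3 was 182, 180 and 317 CPM in irradiated mice and 125 and 0 CPM in those untreated mice. Foxi1 was 249, 278 and 302 CPM in irradiated mice and 93.8 and 0 CPM in those untreated mice. The part of these markers was not tested, and all these values are a description, with no test.

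Chrm3 passed the threshold in no comparison. Over all kept cells it was 9.85, 9.40 and 7.92 CPM in irradiated mice and 7.24, 9.68 and 7.65 CPM in untreated mice, with a fitted log2 change of -0.17 ± 0.16 (SE, edgeR, adjusted p = 0.448). The sign of this small change differed from that of the CPM means because the fit scales each mouse by TMM, and scaled by library size alone the change was 0.14. In granular duct-like cells Chrm3 was 7.80, 10.98 and 6.73 CPM in irradiated mice and 10.3, 12.6 and 11.9 CPM in untreated mice, which overlapped (-0.44 ± 0.20, adjusted p = 0.115). In ionocyte-like cells it was 10.6, 4.31 and 8.06 CPM in irradiated mice and 2.87, 4.19 and 3.12 CPM in untreated mice, without overlap (0.87 ± 0.39, adjusted p = 0.11). In intercalated duct-like cells it was 17.3, 12.5 and 10.8 CPM in irradiated mice and 7.72, 14.4 and 6.78 CPM in untreated mice, which overlapped (0.68 ± 0.40, adjusted p = 0.25). Without irradiated mouse 2 the granular change was -0.69 (adjusted p = 0.0358) and the ionocyte change 1.34 (adjusted p = 0.0307). Granular duct-like cells held 66.7% of Chrm3 UMIs and 54.1% of cells in irradiated mice, and 41.9% of UMIs and 29.9% of cells in untreated mice.

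Chrm1 was rare. It had 2, 6 and 0 UMIs in irradiated mice and 9, 21 and 17 UMIs in untreated mice over all kept cells. These are 0.299, 0.223 and 0 CPM in irradiated mice and 0.740, 1.45 and 1.495 CPM in untreated mice. Every irradiated mouse lay below every untreated mouse, and the gene did not pass the filter on low counts. Of 8 irradiated Chrm1 UMIs 5 lay in myoepithelial-like cells. Of 47 untreated UMIs, 34.0% lay in Smgc-led, 31.9% in intercalated duct-like and 19.1% in acinar-like cells.

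**Figure D4:**
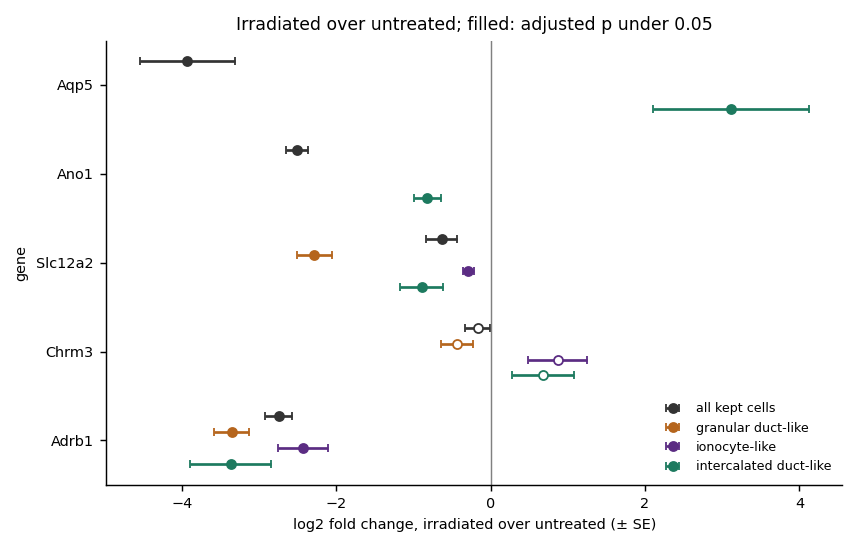
Log2 fold change ± SE (x axis) of each tested gene (y axis) in irradiated over untreated cells, for all kept cells and 3 duct classes, with filled points past an adjusted p of 0.05. Adrb1 lies between -3.37 and -2.43 with filled points in every set, and Chrm3 lies between -0.44 and 0.87 with open points in every set.

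Pairs of these genes were also counted within single cells, which needs no scaling but moves with depth. Both Ano1 and Slc12a2 had a UMI in 51.4% of 105 irradiated, 84.7% of 111 basal sort and 49.2% of 526 untreated intercalated duct-like cells, and in 26.4% of 216 myoepithelial-like cells of the basal sort. Both Aqp5 and Slc12a2 had a UMI in 94.4% of 108 untreated acinar-like cells and 91.6% of 83 untreated Smgc-led cells. Aqp5 and Ano1 were found together in 54 of the 108 acinar-like cells and 24.1% of the Smgc-led cells. Adrb1 and Slc12a2 were found together in 20.5% of untreated ionocyte-like cells, and in 36.0% of basal sort and 23.2% of untreated intercalated duct-like cells.

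The basal sort separated these genes by compartment. The comparison used the same untreated mice as the irradiation comparison. Over all kept cells Aqp5 was 0.778, 0.529 and 0.630 CPM in basal sort mice and 77.5, 102 and 96.3 CPM in untreated epithelium, and it fell by 7.60 ± 0.21 on the log2 scale (SE, edgeR, adjusted p = 2.1e-08). Slc12a2 was 27.2, 59.4 and 29.7 CPM in basal sort mice and 452, 400.0 and 385 CPM in untreated mice, and fell by 3.94 ± 0.27 (adjusted p = 1.4e-06). Adrb1 was 4.73, 8.57 and 3.92 CPM in basal sort mice and 19.2, 24.5 and 27.6 CPM in untreated mice, and fell by 2.63 ± 0.25 (adjusted p = 1.08e-05). Ano1 was 10.1, 24.0 and 10.9 CPM in basal sort mice and 23.1, 20.6 and 25.9 CPM in untreated mice, and although the groups overlapped it fell by 1.196 ± 0.271 (adjusted p = 0.00299). Chrm3 was 11.6, 13.1 and 12.5 CPM in basal sort mice and 7.24, 9.68 and 7.65 CPM in untreated mice without overlap, and its change of 0.07 ± 0.16 did not pass (adjusted p = 0.706). These 4 of 5 tested members called lower compare with 36.8% of 12885 tested genes called lower and 72.8% called in either direction. Scaled by library size alone, the Chrm3 change was 0.59 (adjusted p = 0.00473) and the Ano1 change -0.67 (adjusted p = 0.0502).

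Within the basal sort 2 small classes held most of the Ano1 UMIs, and 1 of them most of the few Aqp5 UMIs. Its intercalated duct-like cells, 110 of 111 from cluster 2, held 285, 424 and 502 CPM of Ano1, 599, 829.6 and 686 CPM of Slc12a2 and 85.0 ± 13.7 CPM of Adrb1, with no Aqp5 UMI. Its myoepithelial-like cells held 109.9, 143 and 123 CPM of Ano1, 74.9 ± 17.7 CPM of Slc12a2 and 13.7 ± 3.71 CPM of Aqp5. Of the sort's UMIs these classes held 48.9% (intercalated) and 44.5% (myoepithelial) of 564 for Ano1, and myoepithelial-like cells held 92.9% of 28 for Aqp5. Of 1475 Slc12a2 UMIs 34.6% lay in intercalated duct-like, 9.69% in myoepithelial-like and 49.8% in basal duct-like cells. Basal duct-like cells, 81.6% of the cells, held 84.3% of 511 Chrm3 and 58.1% of 222 Adrb1 UMIs. Basal duct-like cells alone were compared between the sort and the untreated epithelium, where the class had 13 to 19 cells per mouse. Slc12a2 was 20.2, 21.4 and 20.2 CPM in the sort and 18.2, 7.70 and 7.66 CPM in untreated mice (1.13 ± 0.46, edgeR, adjusted p = 0.169). Chrm3 (0.60 ± 0.54, adjusted p = 0.599) and Adrb1 (0.44 ± 1.04, adjusted p = 0.856) did not pass either. None of the 3 tested members was called there, where 5.27% of 10221 tested genes were (3.26% higher and 2.02% lower), and at an unadjusted p under 0.05 there was 1, Slc12a2. DESeq2 called none of the members either.

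The genes most like each member were found over 53 points, each the sum of 1 class in 1 mouse, among 7570 genes. These points share libraries and mice, so the correlations of log2(CPM + 1) are a description. Ano1 was most like BC006965 (Pearson r = 0.88), Gpc6 (0.82) and Sox10 (0.82). Slc12a2 was most like Ncald (0.84), Pam (0.78) and Kit (0.76), of which Ncald and Kit were among the markers that named intercalated duct-like cells. Six2 (0.79) and Slc10a5 (0.77) were among the genes most like Adrb1. Aqp5 was most like Pip (0.78), Wfdc12 (0.76) and Lman1l (0.69), of which Pip was an acinar marker. For the low receptors the best values were lower, 0.68 between Chrm3 and Hdac11 and 0.62 between Chrm1 and Msrb1. Aqp3 was most like the proliferation genes Pclaf (0.62), Birc5 (0.61) and Cenpf (0.59). This rests on few molecules, since Aqp3 averaged 0.202 CPM over these points. In the basal sort, cycling cells held 3 of its 40 UMIs and basal duct-like cells 37.

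The 105 other genes of these pathways, in 7 lists, were read in the same fits. Of the list of cyclic AMP signalling, the pathway downstream of Adrb1, 4 of 16 tested genes were higher and 8 lower over all kept irradiated cells, with a median log2 change of -0.22. Over all tested genes 20.4% were higher and 19.4% lower there, with a median of -0.03. In granular duct-like cells 1 of 13 was higher and 7 were lower (median -0.42), where 18.5% of all tested genes were called in each direction. In ionocyte-like cells 0 of 13 were higher and 6 lower (median -0.28), where 17.1% of all tested genes were higher and 13.4% lower. The median over all tested genes was -0.03 in both classes. Pde4d, a phosphodiesterase that breaks down cyclic AMP, was 34.5, 32.8 and 25.1 CPM in irradiated and 133, 145 and 117 CPM in untreated intercalated duct-like cells, and fell by 1.87 ± 0.19 on the log2 scale (edgeR, adjusted p = 0.00027). It fell in granular duct-like cells too, by 1.52 (adjusted p = 1.35e-05). Its relative Pde4b rose in intercalated duct-like cells, at 207, 123 and 161 CPM in irradiated mice and 32.3, 31.1 and 22.2 CPM in untreated mice (2.64 ± 0.21, adjusted p = 8.24e-05). Gnas, which encodes the stimulatory G protein subunit that couples beta-adrenergic receptors to adenylyl cyclase, fell in ionocyte-like cells by 0.53 ± 0.07 (adjusted p = 9.74e-05).

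Calcium signalling, the pathway downstream of the muscarinic receptors, had 2 of 16 tested genes higher and 1 lower over all kept cells (median -0.14), fewer in share than the 20.4% higher and 19.4% lower of all tested genes. In granular duct-like cells 1 of 14 was higher and 6 were lower (median -0.27), beside 18.5% of all tested genes in each direction, with the store-release channel Itpr1 at 34.0, 30.5 and 26.6 CPM in irradiated and 47.9, 44.4 and 47.3 CPM in untreated mice (-0.66 ± 0.11, edgeR, adjusted p = 0.000656). Ionocyte-like cells had 1 of 15 higher and 4 lower (median -0.03), beside 17.1% and 13.4% of all tested genes. There Plcb4, a phospholipase C that receptors activate through Gq proteins, was 8.66, 13.6 and 19.97 CPM in irradiated and 61.8, 77.9 and 42.7 CPM in untreated mice, and fell by 2.06 ± 0.24 (adjusted p = 2.71e-05). Intercalated duct-like cells had 0 of 14 higher and 2 lower (median -0.09), beside 14.8% and 10.1% of all tested genes, and Plcb1 was 1 of these (-2.38 ± 0.46, adjusted p = 0.00513). The plasma membrane calcium pump Atp2b1 rose over all kept cells, at 105, 95.01 and 73.3 CPM in irradiated and 51.4, 42.9 and 50.2 CPM in untreated mice (0.62 ± 0.12, adjusted p = 0.00348).

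Among other ion transport genes, 3 of 19 tested were higher and 6 lower over all kept cells (median -0.09), where 20.4% of all tested genes were higher and 19.4% lower. Lrrc26, an auxiliary subunit of calcium-activated potassium channels of secretory cells, was 51.8, 65.6 and 43.0 CPM in irradiated and 338, 394 and 404 CPM in untreated intercalated duct-like cells, and fell by 2.57 ± 0.20 (edgeR, adjusted p = 7.95e-05). Kcnn4, an intermediate-conductance potassium channel, rose in the same class, at 328, 107 and 100.4 CPM in irradiated and 18.9, 34.3 and 35.1 CPM in untreated mice (2.67 ± 0.41, adjusted p = 0.00185), while over all kept cells it fell by 2.00 ± 0.40 (adjusted p = 0.00443) and without acinar-like cells its change was 0.305. The sodium pump subunit Atp1b1 fell by 1.33 ± 0.24 in intercalated duct-like cells (adjusted p = 0.00407). The volume-regulated chloride channel subunit Lrrc8a rose over all kept cells by 1.08 ± 0.13 (adjusted p = 0.000378). Of the regulators of NKCC1 and chloride channels, 1 of 6 was higher and 0 lower over all kept cells (median 0.07). The same counts held in granular duct-like cells (median -0.12), where 18.5% of all tested genes were called in each direction. In intercalated duct-like cells 2 of 6 were higher and 0 lower (median 0.54), beside 14.8% and 10.1% of all tested genes. In ionocyte-like cells 3 of 6 were higher and 2 lower (median 0.24), where 17.1% of all tested genes were higher and 13.4% lower. The scaffold Slc9a3r1 was 155, 140.1 and 148 CPM in irradiated and 74.0, 73.4 and 79.7 CPM in untreated mice there (0.95 ± 0.09, adjusted p = 4.03e-06). Stk39, the SPAK kinase that activates NKCC1, rose by 0.55 ± 0.11 (adjusted p = 0.00169), and Cab39, a cofactor of that kinase, fell by 0.58 ± 0.09 (adjusted p = 0.000237).

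The families of the 7 genes and other receptors were also read. None of the 9 other aquaporins passed the filter on low counts in any comparison. Of the other anoctamins, 3 of 5 were higher and 1 lower over all kept cells (median 0.61), where 20.4% of all tested genes were higher and 19.4% lower, and in ionocyte-like cells Ano10 was 55.8, 44.6 and 46.1 CPM in irradiated and 23.3, 20.6 and 23.9 CPM in untreated mice (1.07 ± 0.13, edgeR, adjusted p = 4.58e-05). Of the other nerve and nucleotide receptors, 4 of 8 were higher and 2 lower over all kept cells (median 0.11), beside the same shares of all tested genes. Adra1a, an alpha-adrenergic receptor that raises calcium, was 11.6, 14.4 and 12.9 CPM in irradiated and 22.2, 26.4 and 27.7 CPM in untreated granular duct-like cells (-0.99 ± 0.15, adjusted p = 0.000437). Ramp1, an accessory protein of the receptor for the nerve peptide CGRP, rose in granular duct-like cells by 0.96 ± 0.16 (adjusted p = 0.000871) and in ionocyte-like cells by 1.13 ± 0.19 (adjusted p = 0.000622).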

How the data were processed

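Per the submitters' processing notes, the authors made the deposited values, raw UMI counts per gene or hashtag and cell barcode, with Cell Ranger 6.1.2 on mm10. Other upstream settings are not given in the sources used here. Barcodes with under 500 genes or over 20% mitochondrial UMIs were dropped. Hashtags were called with HTODemux (Seurat 5.3.0, R 4.3.3, 5 starting clusters, quantile 0.99), and Scrublet scores served to remove doublets of cells from the same mouse (scanpy 1.11.5, Python 3.11.15). Cells were clustered by Leiden (resolution 1, 2000 variable genes without the 7 members, 30 principal components, 15 neighbours). A cluster was named by 15 marker lists when at least 3 markers were raised 1.5-fold and held by 10% of its cells. The raised markers also had to be no fewer than the other markers of the list. Among such lists the one with the highest mean log2 fold gave the name. A name was withdrawn where the leading genes held more markers of another list. It was also withdrawn at a low UMI median with no marker of the list among the leading genes. Names rebuilt in this way can differ from those of the study.

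Counts were summed per mouse and class of at least 10 cells. The sums were tested over all genes with edgeR 4.0.16 (quasi-likelihood, TMM scaling, filterByExpr, Benjamini-Hochberg, threshold 0.05), and DESeq2 1.42.0 was an alternative. Scaling by library size alone and leaving out cluster 19 were alternatives chosen after seeing the data. Intervals are exact at 95% and, like floors of 3 counts, cover counting error only. Shares of cells with a UMI were compared after thinning each cell to 2000 UMIs, and shallower cells were left out. Simulated data gave every gene the same spread between mice (dispersion 0.05), and the rates hold for that spread only. Intercalated duct-like cells were not simulated. For all kept cells (11881 genes), granular (9720) and ionocyte-like cells (9375), 98.95 to 100% of log2 changes of 2 were recovered. Of changes of 1, 37.8 to 49.0% were recovered. False calls made up 2.86, 4.73 and 6.94% of the calls in these 3 sets, the last above the threshold. All 7 members were described in every comparison. From each of 7 lists of 105 pathway genes up to 4 called genes with a mean of at least 10 CPM and the largest changes could be named. Likeness used the 3 genes with the highest Pearson r. The members and lists were chosen with earlier results of these data known. SciPy 1.17.1 and matplotlib 3.10.9 were used for intervals and figures. A few genes that the naming rules picked are not reported here.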

Additional observations from a re-analysis of the deposited data

Results flagged for a closer look

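The effect of irradiation differed between ionocyte-like and granular duct-like cells by a test of the difference itself for 2 of the 5 genes tested, where 12.5% of 10766 tested genes were called. Both classes came mostly from different clusters in irradiated and untreated mice. The Slc12a2 effect was 1.99 higher in ionocyte-like cells on the log2 scale (edgeR, adjusted p = 4.64e-06). The Ano1 effect was 2.90 higher (edgeR, adjusted p = 0.0267), on 1 to 12 Ano1 UMIs per mouse and class. Of 13 alternatives 9 gave a value for Ano1. The call was lost in 3 of these 9, with adjusted p of up to 0.116.

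Cells without a hashtag call, which no comparison used, held a large part of the untreated Aqp5 signal. The 623 untreated acinar-like cells without a call held 229 CPM of Aqp5 (13095 UMIs, 95% exact Poisson interval 225 to 233), and the 109 with a call in a clustering of both kinds held 222 CPM. The 382 Smgc-led cells without a call held 659 CPM of Aqp5 (3820 UMIs, interval 638 to 680.1), and the 83 with a call held 550.3 CPM. Ano1 stood at 3.62 CPM in the Smgc-led cells without a call and at 38.6 CPM in those with a call, and Slc12a2 at 652 and 726 CPM. These cells belong to no mouse, so no SD or test is given.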

How the results depend on the processing

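Of 384 refits of the members' changes under alternatives, 345 kept direction and side of the threshold, 25 lost and 7 gained a call and 7 reversed. Of 1268 for pathway genes, 1143 kept both, 121 lost a call and 4 reversed. Each cause was not tested. The reversed changes were Chrm3 over all kept irradiated cells (0.14 by library size only, 0.026 without acinar-like cells, -0.28 to 0.0069 leaving out 1 mouse), Chrm3 over the basal sort (-0.12 at 10% mitochondrial UMIs, -0.030 to 0.25 leaving out 1 mouse), and Adrb1 in basal duct-like cells (-0.60 at 10%, -0.19 to 1.12 leaving out 1 mouse). Kcnn4 over all kept cells reversed to 0.305 without acinar-like cells, P2rx7 to -0.027 under the hashtag share rule, Adra1a to 0.10 at 10%, and Adcy6 in intercalated duct-like cells to 0.21 at 10%.

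Genes called numbered 4719 in irradiated over untreated cells (2665 under the share rule), 3597 in granular (2386 under the share rule), 2858 in ionocyte-like (1347 at 10% mitochondrial UMIs), 1990 in intercalated and 539 in basal duct-like cells (861 by DESeq2, 809 without the low count filter), and 1342 for the difference of responses (585 by DESeq2, 686 at 10%). Leaving out 1 mouse gave 1134 to 2384 genes in intercalated, 216 to 579 in basal duct-like cells and 893 to 1314 for the difference. Members called were 2 in granular duct-like cells (5 without the filter, 2 to 5 leaving out 1 mouse), 2 in ionocyte-like cells (0 at 10%, where Adrb1 gave no value), 4 in intercalated duct-like cells (2 to 4 leaving out 1 mouse), and 2 for the difference (1 by DESeq2, at 10% or with the members among the variable genes, and 1 to 2 leaving out 1 mouse).

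The replicate numbers did not pair mice: deviations of same-numbered mice correlated between -0.19 and 0.05. The replicate block moved members called to 4 in granular duct-like cells and 6 over the basal sort, and ended the Aqp5 call in intercalated duct-like cells.

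Without TMM scaling the median log2 change of all genes moved from -0.03 to 0.27 over all kept irradiated cells, to 0.49 over the basal sort and to -0.21 in intercalated duct-like cells. The share of calls that were higher was 82.6% instead of 51.3%, 71.0% instead of 49.4%, and 42.1% instead of 59.4%, and in basal duct-like cells 39.4% instead of 61.8%. Levels moved for Aqp5 in Smgc-led cells (637 CPM with uncalled cells), Ano1 in untreated intercalated duct-like cells (124 CPM at 10%, 184 under the share rule), Slc12a2 in untreated ionocyte-like cells (1343 and 2068 CPM) and Chrm3 in myoepithelial-like cells (29.0 CPM under the share rule). Mean shares of cells with a UMI moved with thinning to 1000 UMIs and without it: Aqp5 in untreated acinar-like cells 19.9 and 97.3% (37.2% at 2000), Ano1 in intercalated duct-like cells 3.83 and 60.5% irradiated and 15.4 and 60.3% untreated, and Adrb1 in granular duct-like cells 6.55% irradiated without thinning and 3.04 and 31.3% untreated. The fit of all 3 libraries was not run for granular, ionocyte and basal duct-like cells, nor the share rule for ionocyte, intercalated and basal duct-like cells and the difference, since too few cells per mouse remained. Aqp3 and Chrm1 passed the low count filter in no comparison, and the part of depth in this was not tested.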

Other observations

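In the basal sort, most tested genes of the calcium, cyclic AMP and other ion transport lists were lower than in the untreated epithelium over all kept cells. This compares different mixtures of cells. Of calcium signalling genes, 4 of 18 tested were higher and 11 lower, of cyclic AMP genes 4 of 16 and 12, and of other ion transport genes 3 of 19 and 13, where 36% of all tested genes were higher and 36.8% lower. Of the regulators of NKCC1 and chloride channels 3 of 8 were higher and 2 lower (median 0.27). Of the other anoctamins 2 of 5 were higher and 3 lower, and of the other receptors 2 of 10 and 6. Atp2a3, a calcium pump of internal stores, was 1.11, 5.29 and 1.19 CPM in basal sort mice and 138, 143 and 129 CPM in untreated mice (-6.46 ± 0.41, edgeR, adjusted p = 9.15e-07). The chloride channel Cftr was 2.56, 4.23 and 2.80 CPM in basal sort mice and 31.0, 34.4 and 25.4 CPM in untreated mice (-3.81 ± 0.19, adjusted p = 2.77e-07). The phosphodiesterase Pde4b rose, at 188, 203 and 144 CPM in basal sort mice and 30.0, 27.7 and 23.8 CPM in untreated mice (2.19 ± 0.13, adjusted p = 7.36e-07).

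These lists were also read among basal duct-like cells alone, in the sort over the untreated epithelium. There 3.26% of 10221 tested genes were higher and 2.02% lower. Of calcium signalling genes 2 of 17 tested were higher and 1 lower. Of the regulators of NKCC1 and chloride channels 1 of 7 was higher and 1 lower, and of other ion transport genes 1 of 16 and 0. Wnk1, a kinase upstream of NKCC1, was 97.0, 99.5 and 87.2 CPM in the sort and 42.5, 38.5 and 34.5 CPM in untreated mice, and rose by 1.44 ± 0.24 (edgeR, adjusted p = 0.00161). Gnaq, the G protein subunit that couples muscarinic receptors to phospholipase C, was 79.6, 74.9 and 79.8 CPM in the sort and 48.5, 11.6 and 26.8 CPM in untreated mice, and rose by 1.69 ± 0.31 (adjusted p = 0.00347). None of 13 tested cyclic AMP genes, none of 5 other receptors and none of 2 other anoctamins was called.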
